A study of Arabidopsis thaliana with 12 samples.

Results

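CHI and AT4G12490 are 2 genes of Arabidopsis thaliana that were followed over the 6 genotypes of a study of suppressors of the abscisic acid (ABA) deficient mutant aba3-1. CHI is the symbol that the annotation gives to the locus AT2G43570, described there as a putative chitinase, and it is a different gene from chalcone isomerase, which carries the same letters in other sources. AT4G12490 is a locus of the lipid-transfer type. Each gene has 1 probe set on the ATH1 array, 260568_at for CHI and 254832_at for AT4G12490, and these 2 probe sets were taken out of 22746 that are not controls, of which 11561 were tested. The genes were chosen by their log2 differences from wild type and from aba3-1 on these same arrays. Their levels and differences are therefore given as a description, with no test and no p-value, and tests are given only for other genes. The lists of these other genes were also chosen with earlier results of these data known, so their p-values are not free of that choice.

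Plants carrying aba3-1 have cold leaves, and the 4 lines S58-2, S15-118, S14-150 and S82-2 are recessive suppressor mutants. The labels place these lines in a screen, by infrared thermography, for reversion of the cold-leaf phenotype. The other groups are aba3-1 itself and wild type (wt), each group has 2 arrays, and the replicate numbers 1 and 2 run through all 6 groups. Aerial parts of untreated plants grown at 21 °C with 8 h of light and 16 h of dark were used, and RNA was amplified, with 20 µg labelled per array. The plants' age, how many plants were pooled and the mutated gene of each line are not given in the sources used here, and each line stands for 1 mutant isolate. No label says that the 2 arrays of a group came from separate plants, so the p-values below cover the spread between these 2 arrays per group, whether technical or biological.

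The gene ABA3 encodes the molybdenum cofactor sulfurase, which activates the enzyme of the last step of ABA synthesis, and 0 probe sets are paired with it here, so the mutated gene itself was not analysed. Chitinases cut chitin, the polymer of fungal cell walls, and many plant chitinases are made in response to pathogens and are counted among the pathogenesis-related proteins. Lipid-transfer proteins are small secreted proteins that bind lipids. The subgroup of EARLI1 and AZI1, whose genes lie beside AT4G12490, has a proline-rich part in front of the lipid-transfer domain, and AZI1 is known for its part in priming of systemic immunity. ABA, the hormone that closes stomata in drought, is also known to counteract salicylic acid dependent defence in leaves.

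The values are GCRMA signals on the log2 scale, so that a difference of 1 is a doubling of the signal. A value of 4 was used as a floor, under which signals were treated as near background, and 45.5% to 46.9% of probe sets lay above it on the 12 arrays. RCA, the gene of Rubisco activase and a marker of green leaf tissue, was between 12.46 and 13.36 on all arrays, while the root genes EXPA7 and GH9C1 stayed between 2.11 and 2.39 and the guard cell regulator FMA between 2.5 and 2.88. The markers of flowers and of senescing leaves have no probe set paired with them here. In such tissue samples, fewer cells of a type and less RNA per cell cannot be told apart. The 25S ribosomal RNA control read 3.77 on the S58-2 replicate 1 array, against 7.19 to 9.78 on the other 11 arrays, and S58-2 replicate 2 had the least extracted RNA, 5.1 µg, of a range that reached 15 µg.

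CHI was at the top of its range in S58-2 and at the bottom in wt. Its log2 signals were 9.68 and 9.39 in S58-2 (replicates 1 and 2), 8.80 and 7.61 in S15-118, 8.45 and 7.14 in aba3-1, 6.13 and 5.62 in S14-150, 4.68 and 3.01 in S82-2, and 4.33 and 3.0 in wt. By overlap of arrays the gene formed 4 steps, with S58-2 above aba3-1 and S15-118, which overlapped each other, then S14-150 alone, then S82-2 and wt, which overlapped. The smallest gap between steps, 0.59 between S58-2 and S15-118, was less than the pooled SD within groups of 0.82. No share of all tested probe sets without such overlap is given here, so the steps are only a description. The group means were 9.54 ± 0.21 in S58-2, 8.21 ± 0.84 in S15-118, 7.80 ± 0.93 in aba3-1, 5.88 ± 0.36 in S14-150, 3.85 ± 1.18 in S82-2 and 3.67 ± 0.94 in wt (SD, n = 2 each).

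AT4G12490 had log2 signals of 7.15 and 7.57 in S58-2, 6.89 and 6.82 in S15-118, 4.97 and 5.14 in aba3-1, 3.77 and 3.87 in S14-150, 3.25 and 2.56 in S82-2, and 2.74 and 1.89 in wt. Here S15-118 stood clear of aba3-1, by 1.92 in replicate number 1 and 1.68 in number 2, and S58-2 lay above S15-118 by 0.26 and 0.75. S82-2 and wt overlapped, as for CHI, and no other neighbours in the order did. This too is only a description, with no share of all tested probe sets beside it. The group means were 7.36 ± 0.30 in S58-2, 6.86 ± 0.05 in S15-118, 5.06 ± 0.12 in aba3-1, 3.82 ± 0.07 in S14-150, 2.91 ± 0.49 in S82-2 and 2.32 ± 0.60 in wt (SD, n = 2 each).

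**Figure D1:**
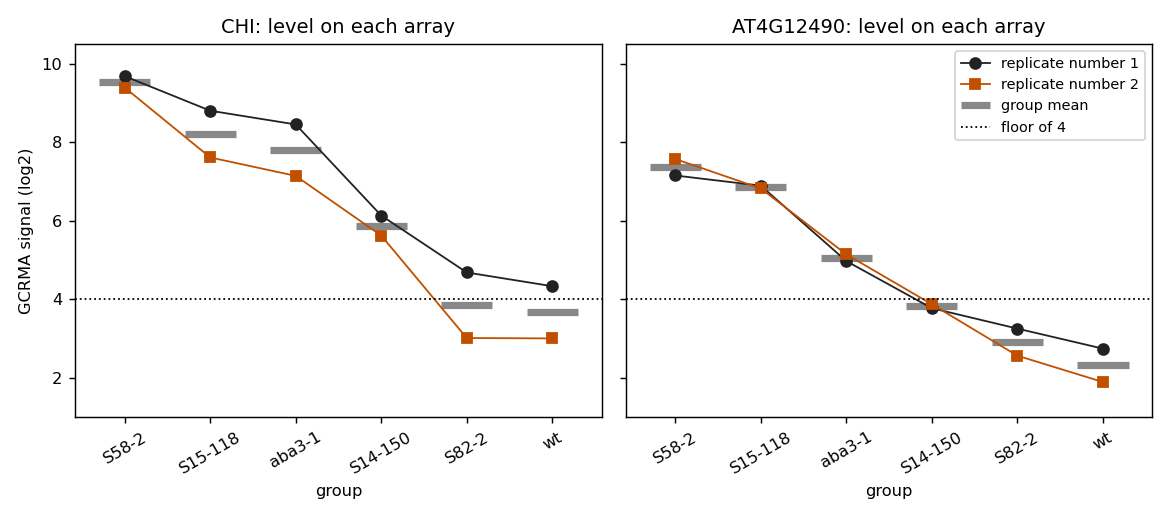
Log2 GCRMA signal of CHI (left) and AT4G12490 (right) on each array, by group; points joined by a line share a replicate number, grey marks are group means and the dotted line is the floor of 4. Both lines descend in the same order of groups for both genes, from S58-2 to wt, but CHI in number 2 differs by only 0.01 between S82-2 and wt. For CHI the number 2 arrays lie below the number 1 arrays in every group.

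The order of the 6 groups, from high to low S58-2, S15-118, aba3-1, S14-150, S82-2 and wt, was the same for both genes and in both replicate numbers. Among the 11561 tested probe sets 16, the 2 members included, showed this order in both numbers, while 92 showed it in number 1 and 236 in number 2. GLR1.4, which encodes a glutamate receptor-like channel, AT1G67850 and AT5G63680 are those of the other 14 that have a gene paired with them. The low end of the order rests on signals near background. In number 2 CHI was only 0.01 higher in S82-2 than in wt, with both arrays below the floor. AT4G12490 was below the floor on all arrays of S14-150, S82-2 and wt. The count of 16 thus depends on an order that these signals do not resolve at its low end.

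How far the signals lie above background differs between the genes. CHI was above the floor on 10 of 12 arrays and AT4G12490 on 6, those of S58-2, S15-118 and aba3-1. On the S58-2 arrays CHI was higher than 97.5% and 96.9% of all probe sets, against 57.4% and 42.1% on the wt arrays. AT4G12490 was higher than 87.8% and 90.3% on the S58-2 arrays, and than 35.5% and 0.00440% on the wt arrays, where in replicate 2 it was close to the lowest signal measured. CHI was below the floor in replicate 2 of S82-2 and of wt, and its group means in both groups were below it as well. Differences of CHI from wt or S82-2, and of AT4G12490 from wt, S82-2 or S14-150, thus rest on signals near background in the lower group and are given as differences of the GCRMA log2 values, with no fold.

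The replicate numbers moved the genes differently. CHI was lower in number 2 than in number 1 in all 6 groups, by -1.67 in S82-2, -1.33 in wt, -1.31 in aba3-1, -1.19 in S15-118, -0.51 in S14-150 and -0.29 in S58-2. AT4G12490 differed between the numbers by -0.85 in wt and -0.69 in S82-2, and by values from -0.07 to 0.42 in the other 4 groups. The pooled SD within groups was 0.82 for CHI and 0.34 for AT4G12490, and for CHI much of that spread was shared by arrays of one number, so that differences are also given within each number.

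Set against wt, the mutant aba3-1 had more of both transcripts. CHI was 4.12 higher in number 1 and 4.14 in number 2, a difference of group means of 4.13 (SE 0.71, n = 2 per group), and AT4G12490 was 2.23 and 3.25 higher, with a mean difference of 2.74 (SE 0.32). CHI had the largest positive mean difference of all 11561 tested probe sets in this comparison and AT4G12490 held rank 27. As background, limma called 0.45% of the tested probe sets in this comparison, and 4.98% when the replicate number was a term of the model (the blocked fit). The SEs given for the members here and below are from the fit without that term. In the blocked fit the SE was 0.30 for CHI and 0.28 for AT4G12490.

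S58-2 stood farthest from wt. CHI was 5.35 and 6.39 higher within the numbers, 5.87 over the group means (SE 0.71), and AT4G12490 was 4.41 and 5.68 higher, 5.05 over the means (SE 0.32). The members held ranks 1 and 2 of all positive mean differences from wt in this line. The differences of both genes were larger in number 2 than in number 1, the number of the array with the low ribosomal RNA control. This was not particular to S58-2. AT4G12490 also differed more from wt in number 2 in aba3-1 (2.23 and 3.25) and in every other line. CHI did so in all groups except S82-2 (0.35 and 0.01). The shared wt array of number 2 was the lower wt array for both genes, at 3.0 for CHI and 1.89 for AT4G12490. Whether the control bears on these differences was not tested. In this comparison 3.23% of the tested probe sets were called, and 22.7% in the blocked fit.

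In S15-118 the members stood equally far above wt over the group means, at 4.54 each, with SE 0.71 for CHI and 0.32 for AT4G12490. CHI was 4.47 and 4.61 higher within the numbers and AT4G12490 4.15 and 4.93 higher. The calls in this comparison made up 1.38% of the tested probe sets, and 14.3% in the blocked fit.

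S14-150 and S82-2 lay nearer to wt. In S14-150 CHI was 1.80 and 2.62 above wt (2.21 over the means, SE 0.71) and AT4G12490 was 1.03 and 1.98 above it (1.51, SE 0.32). No S14-150 array overlapped a wt array for either gene, but for AT4G12490 all arrays of both groups were below the floor. The share of all tested probe sets without such overlap is not given here, so the lack of overlap is only a description. In S82-2 CHI differed from wt by 0.35 and 0.01 and AT4G12490 by 0.51 and 0.67, with mean differences of 0.18 (SE 0.71) and 0.59 (SE 0.32), and the arrays of S82-2 and wt overlapped for both genes. The share of tested probe sets called was 0.0605% for S14-150 against wt (1.39% blocked) and 0.00865% for S82-2 against wt (0.467% blocked).

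**Figure D2:**
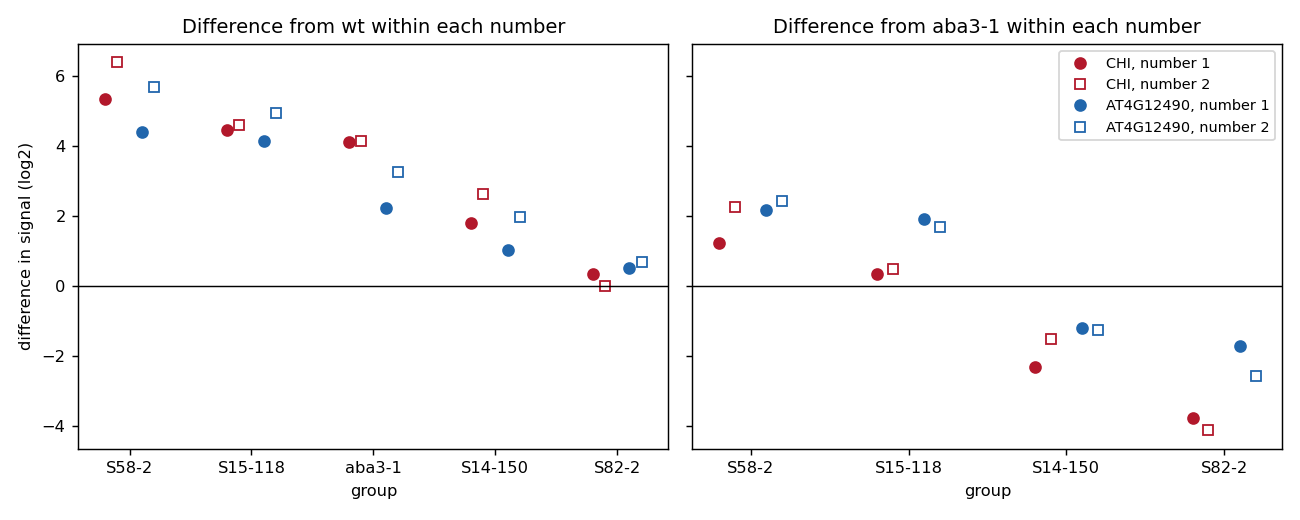
Log2 differences of CHI (red) and AT4G12490 (blue) from wt (left) and from aba3-1 (right) between arrays of the same replicate number; filled circles are number 1, open squares number 2. S58-2 and S15-118 lie above 0 in both panels, S14-150 lies above wt and below aba3-1, and S82-2 lies close to wt and farthest below aba3-1.

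Measured from the parent mutant, the 4 lines parted in direction. S82-2 differed from aba3-1 by -3.77 and -4.13 for CHI (mean -3.95, SE 0.71), and by -1.72 and -2.58 for AT4G12490 (mean -2.15, SE 0.32). S14-150 differed in the same direction, by -2.32 and -1.52 for CHI (mean -1.92) and by -1.20 and -1.27 for AT4G12490 (mean -1.24). In these 2 comparisons, 0.502% (S82-2; 5.86% blocked) and 0.0173% (S14-150; 0.0865% blocked) of the tested probe sets were called. CHI had the most negative mean difference of all tested probe sets in S82-2 and held rank 4 on that side in S14-150.

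S58-2 and S15-118 lay above aba3-1 within both numbers. S58-2 was higher by 1.23 and 2.25 for CHI (mean 1.74, SE 0.71) and by 2.18 and 2.43 for AT4G12490 (mean 2.31, SE 0.32), which for AT4G12490 was the largest positive mean difference of all tested probe sets in this comparison. S15-118 differed little from aba3-1 in CHI, by 0.35 and 0.47 (mean 0.41, SE 0.71, arrays overlapping). It differed more in AT4G12490, by 1.92 and 1.68 (mean 1.80, SE 0.32, no overlap). No share of all tested probe sets stands beside this lack of overlap, so it is only a description. Calls made up 0.00865% (S58-2) and 0.0346% (S15-118) of the tested probe sets, and 0.104% and 0.0865% in the blocked fit. The comparisons with wt share the wt arrays and those with aba3-1 share the aba3-1 arrays, so the lines' differences are not independent of each other.

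The place of each line on the way from aba3-1 (0) to wt (1) puts both genes on 1 scale. For AT4G12490 all arrays of wt, S82-2 and S14-150 were below the floor, as were replicate 2 of wt and of S82-2 for CHI. The wt end of the scale thus rests on signals near background, and the places are approximate. S82-2 stood at 0.915 and 0.998 for CHI (numbers 1 and 2) and at 0.771 and 0.794 for AT4G12490. S14-150 stood at 0.563 and 0.367 for CHI and at 0.538 and 0.391 for AT4G12490, so the genes resembled each other more than the numbers did. S15-118 stood at -0.085 and -0.114 for CHI and at -0.861 and -0.517 for AT4G12490, and S58-2 at -0.299 and -0.543 and at -0.978 and -0.748, where negative values lie beyond aba3-1.

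The levels of the members followed each other over the arrays. With the mean of each replicate number taken out, Pearson's r between CHI and AT4G12490 was 0.965 over the 12 arrays, and without that step it was 0.947. Within number 1 it was 0.952 and within number 2 0.974, over 6 arrays each. These values are descriptions: the arrays fall in 6 genotypes, they were normalized together, and both genes were chosen for large differences. Of the tested probe sets, 116 had a higher centred r with CHI than AT4G12490 did, and 15 had a higher one with AT4G12490 than CHI did. An r of at least 0.9 was reached with CHI by 477 probe sets and with AT4G12490 by 317.

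**Figure D3:**
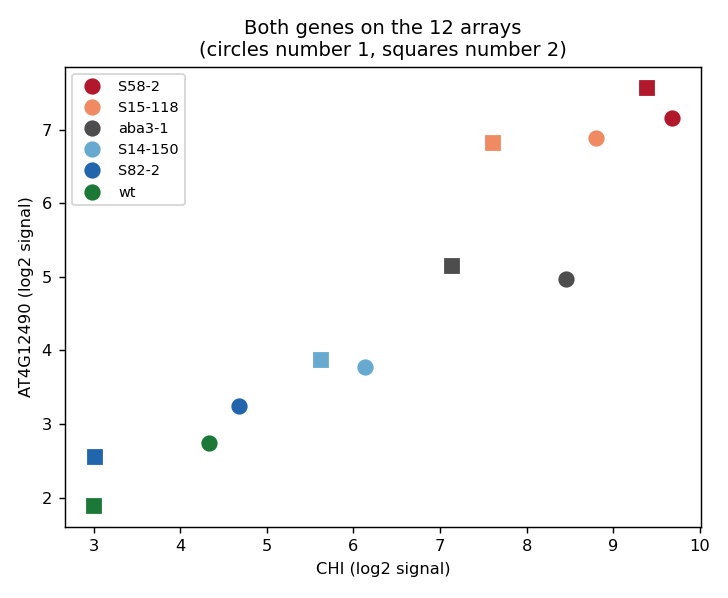
Log2 signal of AT4G12490 against that of CHI on the 12 arrays, coloured by group; circles are replicate number 1 and squares number 2. The arrays run from S58-2 at the upper right, through aba3-1 and S14-150, to S82-2 and wt at the lower left, and S15-118 lies above the aba3-1 arrays at similar CHI levels.

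The genes most like CHI, ranked by centred r over the 12 arrays among probe sets with 1 gene, were AT5G52760 (r = 0.986), AT3G60420 (0.985), WRKY53 (0.983), AT1G57630 (0.981), AT4G17670 (0.981) and AT5G38900 (0.981). WRKY53, a transcription factor of leaf senescence, had log2 signals of 6.44 and 7.05 in S58-2, 6.07 and 5.79 in S15-118, 5.76 and 5.0 in aba3-1, 4.56 and 4.56 in S14-150, 3.05 and 3.11 in S82-2 and 3.72 and 3.01 in wt. All 6 genes had their highest group mean in S58-2, their lowest in wt or S82-2, and S14-150 in between. In 4 of the 6 the S82-2 mean lay below the wt mean. Their range was smaller, with mean differences of S58-2 from wt between 2.65 and 3.74.

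The genes most like AT4G12490 were AT1G68620 (r = 0.974), AT1G21520 (0.968), AT1G65500 (0.967), CHI (0.965), AT5G18310 (0.963) and AT3G13950 (0.961). In 4 of these 6 the S58-2 mean was the highest and in 2, AT1G68620 and AT3G13950, the S15-118 mean was. AT1G68620 averaged 6.08 in S15-118, 5.85 in S58-2, 4.45 in aba3-1, 3.07 in S14-150, 2.26 in S82-2 and 2.29 in wt. The genes running opposite to CHI were AT4G27700 (r = -0.990), AT2G29290 (-0.978) and AT2G27420 (-0.977), and those opposite to AT4G12490 were AT4G00560 (-0.991), AT2G35260 (-0.975) and AT1G68780 (-0.974). For AT4G27700 the r with CHI was -0.241 without centring, so that this likeness shows within each replicate number and not across them.

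**Figure D4:**
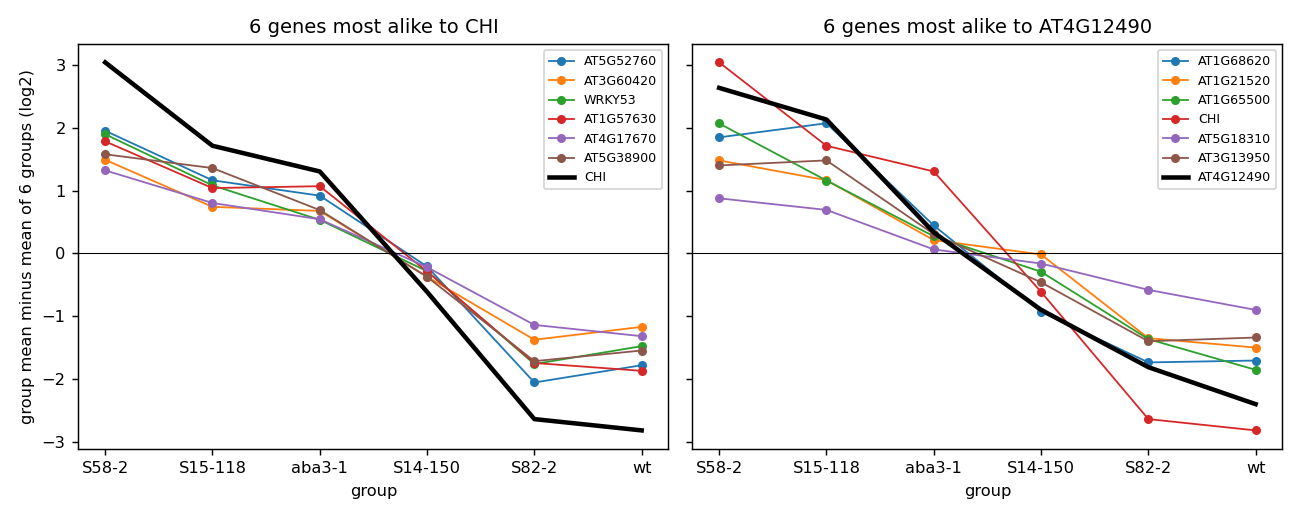
Group means of the 6 genes most like CHI (left) and most like AT4G12490 (right), each minus its mean over the 6 groups, with the member itself as the thick black line (log2). All lines run from high values in S58-2 and S15-118 to low values in S82-2 and wt, and in the left panel CHI has a wider range than the 6 genes beside it.

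Other chitinase genes went partly the same way. Of 24 loci on a list of chitinases, 15 have a probe set paired with them here, CHI among them. Of the other 14 probe sets, 9 never rose above 2.79 and were not tested. Of the remaining 5, AT2G43620 was above the floor on the 2 S58-2 arrays alone, so it entered the test through the group where it is high, and it is left out of the counts and tests. The other 4, AT2G43590, AT4G01700, AT3G47540 and AT1G02360, had a median difference from wt of 1.40 in S58-2, 1.38 in S15-118, 1.45 in aba3-1, 0.86 in S14-150 and 0.21 in S82-2, while the median over all tested probe sets was between -0.04 and 0.005. AT2G43590 and AT1G02360 were below the floor on all wt and S82-2 arrays. These 2 passed the filter through the groups where they are high, and their differences from wt rest on signals near background. Without the block limma called 1 of the 4 higher in each of S15-118 and aba3-1, against 1.38% and 0.45% of all tested probe sets. In S58-2, S14-150 and S82-2 it called 0, against 3.23%, 0.0605% and 0.00865%. There 4, 1 and 0 had an unadjusted limma p under 0.05, as did 2050, 676 and 378 of 11561 tested probe sets. The blocked fit called 3 of 4 higher than wt in each of S58-2, S15-118 and aba3-1, 1 in S14-150 and 0 in S82-2, against 22.7%, 14.3%, 4.98%, 1.39% and 0.467% of all tested probe sets.

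These blocked counts depended on single arrays. They lay between 1 and 3 in S58-2, 1 and 4 in S15-118, 1 and 4 in aba3-1, and 0 and 1 in S14-150 with 1 array left out. In aba3-1 the call of AT3G47540 held in 2 of 12 such fits and that of AT1G02360 in 5 of 12, and both were lost without aba3-1 replicate 1 (limma adjusted p = 0.452 and 0.427). The count in aba3-1 was 1 also without wt replicate 1, S14-150 replicate 1 or S14-150 replicate 2. It was 1 in S15-118 without S15-118 replicate 1 or wt replicate 1, and 1 in S58-2 without S58-2 replicate 2 or wt replicate 1. The S14-150 call was lost without either array of S14-150 or of wt.

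AT2G43590, the locus that follows CHI and AT2G43580 on the chromosome, was the called chitinase in aba3-1 and S15-118. It was below the floor on all wt and S82-2 arrays, so its differences from these groups rest on signals near background. Its signals were 5.27 and 5.34 in aba3-1, against 2.98 and 3.06 in wt, a rise of 2.29 (SE 0.31, limma adjusted p = 0.0349, blocked 0.00147). In S15-118 it was at 5.43 and 4.34, a rise of 1.87 over wt (SE 0.31, limma adjusted p = 0.0329, blocked 0.00203). In S58-2, the group where CHI was highest, it was at 4.35 and 4.34, lower than in aba3-1 in both numbers, and 1.33 above wt (limma adjusted p = 0.0622, blocked 0.00681). In S82-2 it was at 3.42 and 3.53, which is 1.83 below aba3-1, a difference of -1.83 (limma adjusted p = 0.0595, blocked 0.00347). With 1 of the 12 arrays left out, the call in aba3-1 held in 4 of 12 fits (highest adjusted p 0.324, without aba3-1 replicate 1) and that in S15-118 in 3 of 12 (highest 0.171, without wt replicate 2), and in the blocked fit each held in 12 of 12.

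AT2G43620, also of the chitinase family, was at 4.07 and 4.10 in S58-2, against 2.78 and 2.24 in wt, and no array of another group was above the floor. The other chitinases, AT4G01700, AT3G47540 and AT1G02360, had differences of S58-2 from wt of 1.72, 1.47 and 0.72. Against aba3-1 the 4 counted chitinases had 0 calls without the block in all 4 lines, where 0.00865% to 0.502% of all tested probe sets were called. An unadjusted p under 0.05 (limma) was reached by 3 (S82-2), 1 (S14-150), 0 (S15-118) and 1 (S58-2) of the 4 chitinases. Of the 11561 tested probe sets, 885, 270, 191 and 414 reached it in the same order of lines. The blocked fit called 3 of the 4 lower in S82-2 than in aba3-1, against 5.86% of all tested probe sets, and 0 in the other lines. These 3, AT4G01700, AT1G02360 and AT2G43590, were below the floor on both S82-2 arrays, so their differences rest on signals near background there. The S82-2 count lay between 0 (without S82-2 replicate 1) and 4 with 1 array left out, and without aba3-1 replicate 1 the calls of AT4G01700 and AT1G02360 were lost (limma adjusted p = 0.224 and 0.354).

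**Figure D5:**
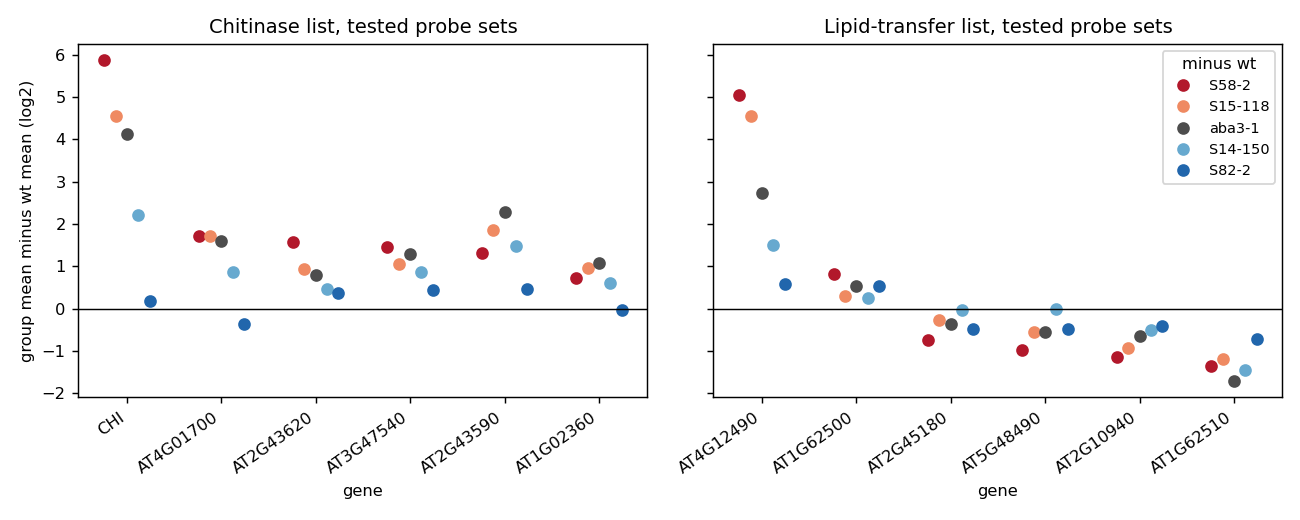
Difference of each group mean from the wt mean (log2) for the tested probe sets of the chitinase list (left) and the lipid-transfer list (right), coloured by group. CHI and AT4G12490 show the widest spread of their lists. The other 5 chitinases lie above 0 in S58-2, S15-118, aba3-1 and S14-150, and 4 of the other 5 lipid-transfer genes lie below 0 in S58-2. AT1G62510, 1 of these 4, was below the floor on all arrays of S58-2, S15-118, aba3-1 and S14-150.

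The profile of AT4G12490 was not matched by the other tested lipid-transfer genes, whose centred r with it ran from -0.914 to 0.402. Of 36 loci on a list of lipid-transfer and EARLI1-type genes, 11 have a probe set paired with them here. Of the 10 beside AT4G12490, 5 were tested. AT1G62510, 1 of these, was above the floor only in replicate 1 of wt (5.57) and of S82-2 (4.99). It passed the filter through groups where it is high, and its differences from wt rest on signals near background in the other groups. It is kept in the medians and counts below, and over all 12 arrays it was called in no comparison in either fit. The median difference of the 5 from wt was -0.97 in S58-2, -0.56 in S15-118, -0.55 in aba3-1, -0.03 in S14-150 and -0.48 in S82-2. Limma called 0 of the 5 in any of the 9 comparisons without the block, where 0.00865% to 3.23% of all tested probe sets were called. An unadjusted p under 0.05 (limma) was reached by 2 of 5 in S58-2 and 1 of 5 in S15-118 against wt, and by 0 in the other 7. Of the 11561 tested probe sets, 2050 in S58-2 and 1517 in S15-118 reached it, and 191 to 885 in the other 7. The blocked fit called 3 of 5 lower in S58-2 than in wt and 1 of 5 lower in S15-118, where 22.7% and 14.3% of all tested probe sets were called. With 1 array left out these counts lay between 1 and 3, and 0 and 1. The S58-2 count was 1 without wt replicate 2 or either array of S14-150 or of aba3-1, and the S15-118 call was lost in 3 of the 12 fits. AT5G48490, 1 of the 3 in S58-2 (difference -0.97, limma blocked adjusted p = 0.0401), was called in 5 of 12 fits with 1 array left out. AT2G10940 was called in both, at 10.36 and 11.01 in S58-2 and 10.52 and 11.30 in S15-118, against 11.61 and 12.05 in wt, differences of -1.15 and -0.92 (limma blocked adjusted p = 0.00211 and 0.0102, without the block 0.171 and 0.373), and with 1 array left out the blocked calls held in 12 and 9 of 12 fits. AT2G45180, the tested list member with the highest mean, differed by -0.73 in S58-2 (limma adjusted p = 0.611, blocked 0.0498), a call that held in 1 of 12 blocked fits with 1 array left out.

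AT2G43560, the gene just before CHI on the chromosome, was between 8.28 and 9.37 on all arrays and differed by -0.83 in S58-2 against wt (limma adjusted p = 0.0544, blocked 0.00352), the opposite direction to CHI. AT2G43580, just after it, never exceeded 2.15. AT4G12500 was the nearest gene to AT4G12490 with a probe set paired with it alone here. Its signals were 3.29 and 3.92 in S58-2, 4.19 and 2.79 in S15-118, and 2.56 and 2.60 in aba3-1. They were 2.97 and 2.62 in S14-150, 2.55 and 2.56 in S82-2, and 2.29 and 2.56 in wt. Its highest arrays were S15-118 replicate 1 and both of S58-2, but it was above the floor on 1 array and was not tested. EARLI1 and AZI1 have no probe set paired with them here and were not analysed. How far transcripts of such related genes bind the AT4G12490 probe set was not tested.

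Defence genes of other hormone pathways were compared with the members through 3 lists, which were chosen with earlier results of these data known. Of 33 salicylic acid and pathogenesis-related loci, 2 have a probe set paired with them here, WRKY53 and SAG101. SAG101 is a partner of the immune regulators EDS1 and PAD4. WRKY53 was named above among the genes most like CHI, so its tests are not independent of the choice of CHI. It was also below the floor on all wt and S82-2 arrays, so its differences from these groups rest on signals near background. WRKY53 was 3.38 higher in S58-2 than in wt (SE 0.33, limma adjusted p = 0.00294), a call that held in 12 of 12 fits with 1 array left out, and 2.57 higher in S15-118 (SE 0.33, adjusted p = 0.0132, held in 9 of 12). Its differences were 2.02 in aba3-1 against wt (limma adjusted p = 0.0575, blocked 0.00378) and -2.30 in S82-2 against aba3-1 (limma adjusted p = 0.0307, held in 5 of 12 fits, blocked 0.00161). SAG101 was at 5.14 and 5.25 in S58-2 and 4.06 and 4.15 in wt, a rise of 1.09 (SE 0.21, limma adjusted p = 0.0336, held in 2 of 12), and its centred r with CHI was 0.937.

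The jasmonate and ethylene list had 3 tested genes of 15 loci, PDF1.2, PDF1.2b and the thionin gene THI2.2. PDF1.2 and PDF1.2b had similar signals, with 7.17 and 7.79 against 7.31 and 8.37 in aba3-1. In S14-150 they had 7.05 and 5.82 against 7.84 and 6.32. How far transcripts of each bind the probe set of the other was not tested, so their calls may not be separate. PDF1.2, a defensin gene, resembled CHI in aba3-1 and S82-2 but not in S58-2: it was 2.78 above wt in aba3-1 (limma adjusted p = 0.0599, blocked 0.00509), -2.96 in S82-2 against aba3-1 (limma adjusted p = 0.0459, held in 4 of 12 fits with 1 array left out), and 4.92 and 5.85 in S58-2, against 4.82 and 4.58 in wt. Its centred r was 0.535 with CHI and 0.394 with AT4G12490. THI2.2 ran the other way, with 3.98 and 3.78 in aba3-1 and 4.61 and 5.11 in wt (difference -0.98, limma adjusted p = 0.243, blocked 0.0272). Without the block limma called 1 of the 3 in S82-2 against aba3-1, where 0.502% of all tested probe sets were called. In the other 8 comparisons it called 0 of the 3, and 0.00865% to 3.23% of all tested probe sets. There 0 (S82-2 against wt) to 3 had an unadjusted limma p under 0.05, as did 191 to 2050 of 11561 tested probe sets. The blocked fit called 3 in aba3-1 and 2 in S15-118 against wt, and 3 in S82-2 and 1 in S14-150 against aba3-1, where 4.98%, 14.3%, 5.86% and 0.0865% of all tested probe sets were called. With 1 array left out these counts lay between 0 and 3, 0 and 2, 1 and 3, and 0 and 1. Without wt replicate 2 all 3 calls in aba3-1 were lost (limma adjusted p = 0.0505 for PDF1.2, 0.152 for PDF1.2b and 0.224 for THI2.2). Both calls in S15-118 were lost without either array of S15-118 or of wt, the S82-2 count was 1 without S82-2 replicate 1 or aba3-1 replicate 2, and the S14-150 call was lost in 6 of 12 fits.

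The ABA-responsive list had 2 tested genes of 15 loci, COR47, a dehydrin gene of the cold response, and XERICO, a ubiquitin ligase gene linked to ABA. Limma called 0 of them without the block in the 9 comparisons, where 0.00865% to 3.23% of all tested probe sets were called. An unadjusted p under 0.05 (limma) was reached by 1 in S15-118 against wt and 1 in S82-2 against aba3-1. In these comparisons 1517 and 885 of 11561 tested probe sets reached it. The blocked fit called COR47 in both (limma adjusted p = 0.0238 and 0.0346), where 14.3% and 5.86% of all tested probe sets were called. With 1 array left out these calls held in 9 and 5 of 12 blocked fits (highest adjusted p 0.180, without S15-118 replicate 1, and 0.283, without S82-2 replicate 1). COR47 was at 8.05 and 7.74 in S58-2, 7.58 and 7.39 in S15-118, 7.79 and 7.25 in aba3-1, 8.20 and 7.54 in S14-150, 9.32 and 7.89 in S82-2 and 8.76 and 8.31 in wt, with a centred r of -0.728 with CHI, and XERICO had an r of -0.050.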

How the data were processed

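The data are 12 arrays of aerial parts, 2 in each of 6 groups. The table the authors deposited gives a log2 signal per probe set; the submitters' processing notes name GCRMA, without a version. The log base is not stated and was taken as 2, the scale of that tool. Out of 22810 probe sets, 64 controls were dropped, and those above 4 in at least 2 arrays (11561) were tested. Of the 22746 probe sets that are not controls, 13513 carry 1 gene in the annotation at hand, 503 several and 8730 none; chromosome neighbours came from the RefSeq gene table of assembly TAIR10.1. The number of arrays limits the precision.

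Group means were fitted over all 12 arrays with limma 3.58.1 (lmFit, contrasts.fit, eBayes) in R 4.3.3 for 9 comparisons (6 residual degrees of freedom), with Benjamini-Hochberg adjustment over all tested probe sets and calls at an adjusted p under 0.05. The fit was tested on simulated data. Replicate numbers were taken to pair the arrays, since deviations from group means correlated between equal numbers in all 15 pairs of groups (r from 0.708 to 0.872), and the best match of all 12 arrays bore their own number; the blocked fit has the number as a term. The members and lists were chosen with earlier results of these data known. Named were the 6 most alike and 3 most opposite genes per member by centred Pearson r, called list members (or those of highest mean) and chromosome neighbours; other genes were named after their values were seen. Alternatives were the block, no filter, a floor of 6, renewed quantile normalization, median centring and leaving out each array.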

Additional observations from a re-analysis of the deposited data

How the results depend on the processing

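The differences of CHI and AT4G12490 in the 9 comparisons moved by at most 0.051 log2 under the replicate block, renewed quantile normalization or median centring. With 1 array left out, where a number 1 array can face a number 2 array, the CHI difference from wt lay between 3.47 and 4.80 in aba3-1, 1.55 and 2.88 in S14-150, 3.88 and 5.21 in S15-118, 5.21 and 6.54 in S58-2, and -0.655 and 1.02 in S82-2. From aba3-1 it lay between -2.58 and -1.27 in S14-150, -0.245 and 1.07 in S15-118, 1.09 and 2.40 in S58-2, and -4.79 and -3.12 in S82-2. Its sign turned in S82-2 against wt without S82-2 replicate 1 (-0.655) and without wt replicate 2 (-0.485), and in S15-118 against aba3-1 without S15-118 replicate 1 (-0.185) and without aba3-1 replicate 2 (-0.245). For AT4G12490 the ranges from wt were 2.32 to 3.17 in aba3-1, 1.08 to 1.93 in S14-150, 4.12 to 4.97 in S15-118, 4.62 to 5.47 in S58-2 and 0.165 to 1.02 in S82-2, and from aba3-1 -1.32 to -1.15 in S14-150, 1.72 to 1.89 in S15-118, 2.10 to 2.52 in S58-2 and -2.50 to -1.81 in S82-2.

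The replicate block, with the number pairing the arrays, gave 576 called probe sets for aba3-1 against wt (52 without it). Against wt it also gave 161 (7 without the block) for S14-150, 1657 (160) for S15-118, 2621 (373) for S58-2 and 54 (1) for S82-2. Against aba3-1 it gave 10 (2), 10 (4), 12 (1) and 677 (58) for the same lines. With 1 array left out, blocked counts lay between 80 and 954 for aba3-1 against wt, 8 and 490 (S14-150), 468 and 2674 (S15-118), 1094 and 3380 (S58-2) and 1 and 85 (S82-2) against wt, and 3 and 64, 6 and 30, 1 and 548, and 125 and 1001 for the same lines against aba3-1; all 9 highest counts came without S58-2 replicate 1. In the comparisons that do not involve S58-2, the same highest counts also came without S58-2 replicate 2. Only those of S58-2 against wt and against aba3-1 came without replicate 1 alone. Without the filter on low values the counts were 6 for aba3-1 and 9 for S82-2 against wt, and 1 for S14-150 and 2 for S58-2 against aba3-1. With a floor of 6 they were 93 for S15-118 and 2 for S82-2 against wt, and 0 for both S14-150 and S15-118 against aba3-1, with 6193 probe sets tested. Of the 160, 2 and 4 calls for S15-118 against wt and for S14-150 and S15-118 against aba3-1, 65, 2 and 3 were not tested at that floor, and 4, 0 and 1 were tested and not called. With 1 array left out and no block, counts lay between 1 and 74 for aba3-1 against wt, 0 and 13 (S14-150), 8 and 189 (S15-118), 71 and 402 (S58-2) and 0 and 2 (S82-2) against wt, and 0 and 2, 0 and 4, 1 and 2, and 0 and 85 for the same lines against aba3-1. Where not stated, the cause was not tested.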
